A study of Mus musculus with 16 samples.

Results

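The genes described are 9 mouse snoRNA host genes, Snhg1, Snhg3, Snhg4, Snhg5, Snhg6, Snhg8, Snhg11, Snhg12 and Gas5. They were chosen by RNA level, as a list of hosts named because Snhg3 had one of the largest falls in RPKM during oocyte growth, and each listed name was looked up in the table of RNA levels. That table holds 25965 gene rows, and 4 of the 9 genes have one: Snhg3, Snhg11, Snhg12 and Gas5. The RNA of the other 5 was not analysed here, and their methylation was. As the levels of these RNAs led to the choice of the list, the falls described for them are a description and carry no test.

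A small nucleolar RNA (snoRNA) is a short nuclear RNA that guides the chemical modification or the cleavage of ribosomal RNA. In mammals most snoRNAs lie inside introns of a longer host gene, and they are released from the intron after the host transcript has been spliced. Box C/D snoRNAs direct ribose methylation by fibrillarin, and box H/ACA snoRNAs direct pseudouridylation by dyskerin. The spliced RNA of a non-coding host has no long reading frame, and several such RNAs are known to be removed by nonsense-mediated decay, so that the level of a host RNA need not follow that of its snoRNAs.

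The samples were oocytes of wild-type C57BL/6 mice (C57BL/6Babr in the study's methods), isolated from ovaries of young animals and sorted by diameter, and the labels give no age and no treatment. By the study's methods, larger oocytes came from older pups and GV oocytes from the oldest, so oocyte size and age of the animal cannot be told apart. RNA-seq libraries in duplicate (A and B) covered oocytes of 10–30 μm, of 40–45 μm, of 50–55 μm and of 60–65 μm, and 1 column of values was given for fully grown germinal vesicle (GV) oocytes. DNA methylation was measured by RRBS, which samples CpG-rich fragments, in 2 libraries of each class but the smallest, and by PBAT, which samples the whole genome, in 1 library of 60–65 μm oocytes. The labels do not say that A and B came from separate animals, so the spread between them may be technical.

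The snoRNAs inside the 9 hosts number 29 in the RefSeq annotation of GRCm38.p6. Snhg1 and Gas5 hold 8 each, Snhg12 holds 4, Snhg3, Snhg5 and Snhg11 hold 2 each, and Snhg4, Snhg6 and Snhg8 hold 1 each. All 29 lie on the strand of their host. Snora24 lies within the single exon that RefSeq gives to Snhg8, and the others lie in introns. The RNA table has 0 rows named for a Snora or Snord gene, so the snoRNAs themselves were not analysed here.

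Snhg3, the host with the widest range of RNA levels, lies on the minus strand of chromosome 4 (chr4:132351933-132353686) and carries the 2 copies of the H/ACA snoRNA known as U17, which takes part in the cleavage of the ribosomal RNA precursor. They are shown because this is the snoRNA cargo of the host RNA with the widest range in RPKM between size classes, and capitals mark the ACA box near the 3′ end (chr4:132352775-132352979 for Snora73a and chr4:132352322-132352526 for Snora73b, minus strand, RefSeq).
Snora73a: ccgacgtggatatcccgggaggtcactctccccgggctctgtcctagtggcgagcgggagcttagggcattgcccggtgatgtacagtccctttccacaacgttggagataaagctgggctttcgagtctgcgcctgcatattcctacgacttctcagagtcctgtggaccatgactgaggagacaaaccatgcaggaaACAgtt
Snora73b: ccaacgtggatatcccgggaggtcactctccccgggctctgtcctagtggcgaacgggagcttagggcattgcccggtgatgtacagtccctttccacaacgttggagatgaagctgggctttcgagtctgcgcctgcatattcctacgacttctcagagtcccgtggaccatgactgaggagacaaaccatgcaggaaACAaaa
The copies are 205 bases long each and differ at 7 positions (96.6% identical). The exon models counted in the RNA table reach over 159 bases of Snora73a and over 0 bases of Snora73b, so reads from the first could enter the Snhg3 value. The same holds for Gas5, whose counted exon models cover all 8 of its snoRNAs in full, and for Snhg11, whose models cover 1 of its 2.

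Gas5, named for its accumulation in cells that stop growing, lies on the plus strand of chromosome 1 (chr1:161034601-161038539) and carries box C/D snoRNAs, a type named for a C box near the 5′ end and a D box near the 3′ end. The letters TGATGA of the C box were found within 20 bases of the 5′ end in 6 of its 8 snoRNAs, and CTGA of the D box within 20 bases of the 3′ end in 8 of 8. Examples with both are shown, in capitals, to set them beside the H/ACA type of Snhg3. RefSeq gives the first (Snord47, chr1:161038092-161038156) a name, and GENCODE M21 names the second Snord80 (chr1:161037601-161037681).
Snord47: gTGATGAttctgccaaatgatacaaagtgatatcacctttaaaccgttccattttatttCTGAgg
Snord80: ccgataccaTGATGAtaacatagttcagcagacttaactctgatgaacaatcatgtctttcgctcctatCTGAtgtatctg
Snhg12 (chr4:132308678-132311024, plus strand) lies near Snhg3 on chromosome 4 and hosts snoRNAs of both types, with Snora16a, Snora44 and Snora61 of the H/ACA type and Snord99 of the C/D type.

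Snhg3 RNA was at 9.94 and 4.86 RPKM (reads per unit of exon length and of library size) in libraries A and B of 10–30 μm oocytes. The 40–45 μm libraries gave 4.09 and 2.78 RPKM, those of 50–55 μm gave 1.60 and 1.02 RPKM, and those of 60–65 μm gave 1.58 and 1.77 RPKM. The class means were 7.40 ± 3.59, 3.44 ± 0.926, 1.31 ± 0.409 and 1.67 ± 0.130 RPKM (SD, n = 2). The 10–30 μm libraries lay above all others, the 40–45 μm libraries above both larger classes, and the libraries of 50–55 and 60–65 μm overlapped. The mean at 60–65 μm was 4.42-fold lower than at 10–30 μm, a difference of -1.97 (SE 0.36) in log2(RPKM + 0.1). By steps, the log2 difference was -0.92 from 10–30 to 40–45 μm, -1.38 from 40–45 to 50–55 μm and 0.32 from 50–55 to 60–65 μm, each with an SE of 0.36. The first step was -0.36 without 10–30 μm library A and -1.47 without library B, and the last was 0.63 without 50–55 μm library A and 0.016 without library B, so the order of the first steps by size was not settled. Of the 10518 genes tested, 110 had a lower log2 difference between 10–30 and 60–65 μm than Snhg3, or 1.05%.

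Gas5 RNA was far lower. The 10–30 μm libraries gave 0.645 and 0.520 RPKM, followed by 0.400 and 0.352 RPKM for 40–45 μm, 0.348 and 0.282 RPKM for 50–55 μm and 0.349 and 0.400 RPKM for 60–65 μm. Both 10–30 μm libraries lay above the rest, the libraries of 40–45 and 60–65 μm overlapped, and both 50–55 μm libraries lay below these, by a very small margin for library A. The mean went from 0.583 ± 0.0882 to 0.374 ± 0.0359 RPKM (SD, n = 2), a ratio of 1.56 and a log2 difference of -0.50 (SE 0.17). In the first step the log2 difference was -0.43 (SE 0.17). Without 10–30 μm library A the difference between the outer classes was -0.33, and that of the first step -0.26. Gas5 passed the filter on low values (0.5 RPKM in 2 libraries) only through the 10–30 μm class in which it was highest, whereas Snhg3 was above 0.5 RPKM in every library.

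Snhg12 RNA reached 0.161 and 0.120 RPKM in the smallest oocytes, 0.0450 and 0.0612 RPKM in those of 40–45 μm, 0.0471 and 0.0517 RPKM in those of 50–55 μm and 0.0292 and 0.0272 RPKM in those of 60–65 μm. Its libraries fell into a high group of 10–30 μm, an overlapping middle group and a low group of 60–65 μm, with a 4.98-fold ratio between the outer class means. The smallest whole numbers of reads that give these values are 26 and 31 for 10–30 μm and 5 and 8 for 60–65 μm, so each value at 60–65 μm rests on few reads.

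Snhg11, best known from brain, was near the limit of detection. Libraries A and B of 10–30 μm gave 0.0201 and 0.00960 RPKM (17 and 13 reads), those of 40–45 μm 0 and 0.00184 RPKM (0 and 3 reads), those of 50–55 μm 0 and 0.00228 RPKM (0 and 3 reads) and those of 60–65 μm 0.00558 and 0.00130 RPKM (5 and 2 reads). Summed over both libraries, 30 reads at 10–30 μm gave 0.0136 RPKM (exact Poisson 95% interval 0.00919 to 0.0195) and 7 reads at 60–65 μm gave 0.00287 RPKM (0.00115 to 0.00592). These intervals cover counting error only, and as mates and parts of spliced reads were counted apart they are too narrow. Neither Snhg11 nor Snhg12 passed the filter, so neither has a value in the fit.

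**Figure D1:**
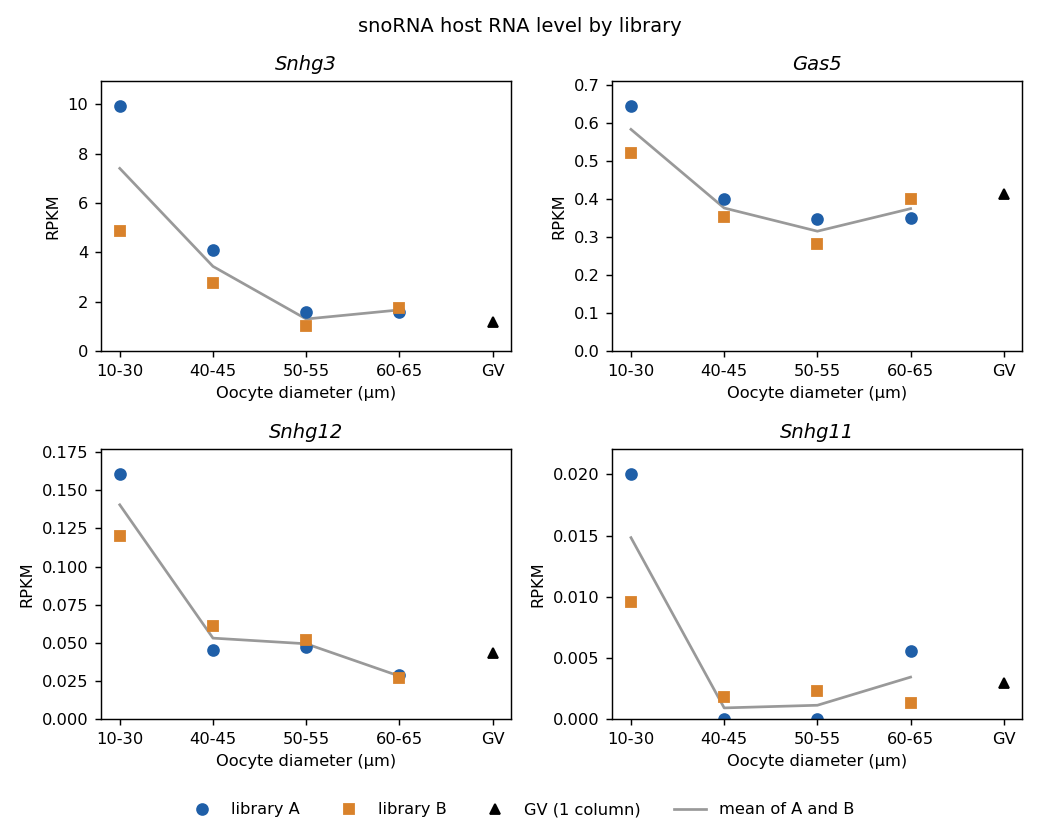
RNA level (RPKM, linear axes that differ between panels) of the 4 host genes with a row, by oocyte diameter, with circles for library A, squares for library B, a line through the class means and a triangle for the single GV column. In each panel both 10–30 μm libraries lie above both 60–65 μm libraries, and the scales run from 9.94 RPKM for Snhg3 down to 0.0201 RPKM for Snhg11.

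In all 4 host genes with a row, both 60–65 μm libraries lay below both 10–30 μm libraries. Of the 20052 rows above 0 in at least 1 of the 8 growing libraries, 35.4% had this order, and as the list was chosen for its falls, nothing is read from the comparison. A fall of 2-fold or more in log2(RPKM + 0.1) was seen in 1 of the 4 (Snhg3) and in 7.87% of the genes tested. On this scale the median difference over the 4 genes was -0.69, beside a median of 0.02 over all genes tested. The added 0.1 RPKM shrinks the differences of Snhg12 (-0.88) and Snhg11 (-0.15), whose levels lie near or under it. In bulk samples, a smaller share of an RNA in the oocytes and fewer cells of a type that holds it cannot be told apart. RPKM is relative to library size, so amounts per oocyte were not measured. The study states that the mRNA content of oocytes increases substantially with growth. By the study's methods the oocytes were collected by mouth pipette and washed through drops of medium to remove somatic cells.

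By level per kilobase, Snhg3 was the highest of the 4 in every column, followed by Gas5, Snhg12 and Snhg11, with no overlap between neighbours in this order in any class. At 10–30 μm library A was above library B for 4 of the 4 hosts, with ratios of A to B of 2.05 for Snhg3, 2.09 for Snhg11, 1.34 for Snhg12 and 1.24 for Gas5. Over all genes tested, 41.7% were higher in A than in B in this class, and the median ratio was 0.960. Without 10–30 μm library A the log2 difference of Snhg3 between 10–30 and 60–65 μm was -1.42, and without library B it was -2.53.

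In GV oocytes Snhg3 was at 1.18 RPKM, below both 60–65 μm libraries, a log2 difference of -0.42 from their mean. Gas5 was at 0.413 RPKM, Snhg12 at 0.0434 RPKM and Snhg11 at 0.00296 RPKM. Gas5 and Snhg12 thus lay above both 60–65 μm libraries, and Snhg11 lay between them. GV oocytes have no replicate, so these differences have no check against a spread. A fall of 2-fold or more from 60–65 μm to GV oocytes was seen in 0.257% of the genes tested and in none of the 4 hosts.

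Genes that overlap or adjoin the hosts were compared, since their reads could enter a host's value. Rcc1, the nucleotide exchange factor of Ran, shares 135 bp of exon with Snhg3 on the same strand (13.7% of the Snhg3 exons). Its RNA level was 3.46 and 3.75 RPKM in 10–30 μm oocytes, against 3.27 and 3.05 RPKM in 60–65 μm oocytes. In the limma fit over all genes it differed by a log2 of -0.16 (SE 0.09, adjusted p = 0.141), which did not pass the threshold of 0.05. Gm17300, which lies antisense to 71.5% of the Snhg3 exons, was at most 0.0371 RPKM in any growing library and was listed at 0 in all libraries of 50–55 and 60–65 μm, so the counting kept the strands apart.

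The gene that faces the Gas5 start, the zinc finger gene Zbtb37, had 2.91 and 2.89 RPKM in 10–30 μm oocytes, against 3.70 and 3.72 RPKM in 60–65 μm oocytes, and its rise passed the test (log2 difference 0.36, limma adjusted p = 0.00829). Slc3a2, which encodes the heavy chain of several amino acid transporters and starts 118 bp from Snhg1 on the other strand, also rose, from 4.45 and 5.38 to 8.89 and 7.58 RPKM (log2 difference 0.75, limma adjusted p = 0.00104). Trnau1ap beside Snhg12, which encodes a protein associated with the selenocysteine transfer RNA, went from 2.08 and 1.83 to 1.52 and 1.71 RPKM (log2 difference -0.24, limma adjusted p = 0.117). Of the 4 neighbours tested, 2 rose and 0 fell, beside 32.7% and 30.7% of all genes tested, so the count is too small to set the neighbours apart. The remaining neighbours, 6030422M02Rik by Snhg6, Prss12 by Snhg8 and Gm17300, did not pass the filter on low values.

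**Figure D2:**
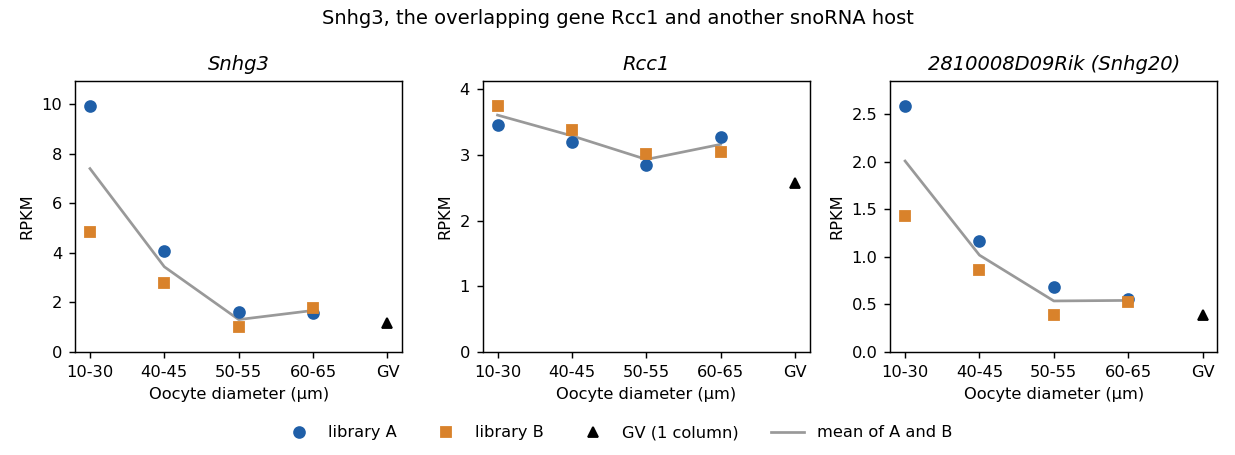
RNA level (RPKM, linear axes that differ between panels) of Snhg3, of Rcc1, which overlaps it on the same strand, and of 2810008D09Rik, an older symbol of the host gene Snhg20, with circles for library A, squares for library B, a line through the class means and a triangle for GV. Snhg3 and 2810008D09Rik are lower by class from 10–30 to 50–55 μm, while Rcc1 stays between 2.56 and 3.75 RPKM.

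The RNA profile most like that of Snhg3 was sought among the other genes tested, by Pearson's r of log2(RPKM + 0.1) over the 9 RNA columns, which include both libraries of each class and GV. The nearest were Gm20695 (r = 0.989), 2810008D09Rik (r = 0.989), Gm10029 (r = 0.982), the mitochondrial ribosomal protein gene Mrps24 (r = 0.981) and 1700021C14Rik (r = 0.981). The gene 2810008D09Rik is listed by RefSeq as a synonym of Snhg20, another non-coding snoRNA host that was not in the list of 9. The 10–30 μm libraries gave 2.59 and 1.42 RPKM, those of 40–45 μm 1.17 and 0.864 RPKM, those of 50–55 μm 0.682 and 0.389 RPKM and those of 60–65 μm 0.561 and 0.522 RPKM, so that its library A lay above B in each class. The 9 columns share size classes, and 235 of the 10518 genes tested had an r of 0.95 or more, Snhg3 itself included, while Gas5 reached 0.863.

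Among all genes tested between 10–30 and 60–65 μm, 30.7% fell and 32.7% rose (limma on log2(RPKM + 0.1), Benjamini-Hochberg adjusted p under 0.05), so a call in either direction was common. The other non-coding snoRNA hosts were few: of 13 looked up, 8 had a row and 2 passed the filter. Both fell, Snhg20 by 1.64 on the log2 scale (adjusted p = 0.00215) and Zfas1 by 0.51 (adjusted p = 0.0347), the latter from 0.656 and 0.572 to 0.425 and 0.366 RPKM. Without 10–30 μm library A, or without either 60–65 μm library, 1 of the 2 passed, and without a filter on low values 6 of the list fell. Over all genes in the fit without a filter, 4545 of 20052 fell. Of the 6 hosts under the filter, Snhg9 had 0.220 and 0.137 RPKM at 10–30 μm and 0 and 0.0302 RPKM at 60–65 μm. The smallest whole numbers of reads that give these values are 4 and 4 against 0 and 1. Snhg15 (listed as Gm11974) had 0.222 and 0.162 RPKM at 10–30 μm and 0.189 and 0.212 RPKM at 60–65 μm, so the classes overlapped.

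Ribosomal protein genes carry many of the snoRNAs in introns, and 26 such hosts were tested. All 26 fell between 10–30 and 60–65 μm (26 of 26 beside 30.7% of all genes, adjusted p in the limma fit under 0.05), with a median log2 difference of -1.08 beside 0.02 over all genes. Ribosomal protein genes that host no snoRNA were not compared, so whether the fall is particular to hosts was not tested. Rps20 went from 22.8 and 18.5 to 5.92 and 6.23 RPKM (log2 difference -1.72, adjusted p = 2.13e-05). Rps3 went from 19.5 and 14.3 to 5.21 and 5.47 RPKM (log2 difference -1.61, adjusted p = 8.39e-05). Like the 4 hosts above, these genes were higher in library A than in library B at 10–30 μm, in 26 of 26, with a median ratio of 1.25. By steps, 12 of the 26 fell from 10–30 to 40–45 μm, 3 fell from 40–45 to 50–55 μm and 0 from 50–55 to 60–65 μm. Over all genes tested 8.32%, 3.56% and 0% fell in these steps. The counts of the earlier steps depended on whether the letters A and B were taken to pair the libraries: with the letter as a block in a fit of the 3 smaller classes, 21 and 20 of the 26 fell in these steps, beside 17.4% and 17.0% of all genes. In the last step limma called 0 genes in either direction, with 1437 at an unadjusted p under 0.05, none of the 26 hosts among them.

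The 24 other protein-coding hosts were mixed, with 13 that fell, 2 that rose and 9 that did not pass, and a median log2 difference of -0.41. Over all genes tested 30.7% fell, 32.7% rose and the median was 0.02. Cct6a, a subunit of the cytosolic chaperonin, went from 21.3 and 18.7 to 7.16 and 7.97 RPKM (log2 difference -1.37, limma adjusted p = 2.81e-05). Taf1d, a subunit of the factor that recruits RNA polymerase I to ribosomal RNA genes, went from 12.5 and 10.0 to 4.05 and 4.74 RPKM (log2 difference -1.31, limma adjusted p = 0.000166). The hosts that rose were Dkc1, which encodes dyskerin, by a log2 of 1.26 (limma adjusted p = 0.000144) and Chd8, a chromatin remodeller, by 0.80 (limma adjusted p = 0.00757). Without 60–65 μm library A, 1 of these genes rose.

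**Figure D3:**
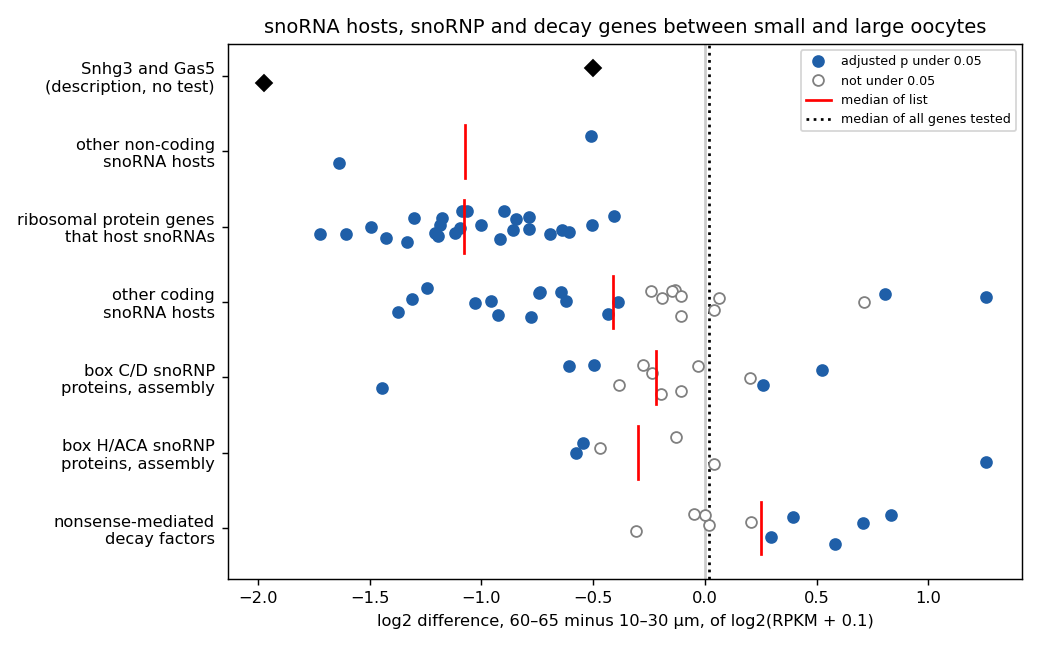
Log2 difference in log2(RPKM + 0.1) between 60–65 and 10–30 μm oocytes (horizontal axis) for each gene tested in each list, with filled circles for an adjusted p under 0.05, open circles for the others, a red bar at the median of the list and a dotted line at the median of all genes (0.02). Snhg3 (-1.97) and Gas5 (-0.50) are drawn as diamonds without a test, and the 26 ribosomal protein hosts all lie to the left of 0.

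The genes of proteins that bind snoRNAs did not follow one direction, as was so for all genes tested (30.7% fell and 32.7% rose). Of 12 box C/D snoRNP and assembly genes tested, 3 fell, 2 rose and 7 did not pass. Their median log2 difference was -0.22, beside 0.02 over all genes, and the counts are too small to set the list apart. Fbl, which encodes fibrillarin, went from 5.39 and 5.50 to 1.97 and 1.85 RPKM (log2 difference -1.45, limma adjusted p = 3.21e-05), and Pih1d1, an assembly factor, fell by 0.61 on the log2 scale (limma adjusted p = 0.00623). The assembly ATPase gene Ruvbl2 rose by 0.52 (limma adjusted p = 0.00185) and Rpap3, its partner, by 0.26 (limma adjusted p = 0.0344). The number that fell was 1 without 60–65 μm library A and 6 without 10–30 μm library B, and 1 rose with any single library of 10–30, 50–55 or 60–65 μm left out.

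Beside 30.7% and 32.7% of all genes tested that fell and rose, 2 of 6 box H/ACA genes fell, 1 rose and 3 did not pass. Their median log2 difference was -0.30, and the counts are too small to set the list apart. Those that fell were the assembly chaperone Shq1, by 0.58 on the log2 scale (limma adjusted p = 0.00382), and the core protein gene Nhp2, by 0.55 (limma adjusted p = 0.0113). The one that rose was Dkc1, from 2.80 and 2.45 to 6.39 and 6.25 RPKM. Without 10–30 or 60–65 μm library A, 1 gene fell. Thus the genes of the enzymes of the 2 snoRNP types moved in opposite directions, Fbl lower and Dkc1 higher in 60–65 μm oocytes.

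Of 10 nonsense-mediated decay factors tested, 5 rose, 0 fell and 5 did not pass, with a median log2 difference of 0.25. Over all genes tested 32.7% rose and 30.7% fell, so 10 genes are too few to set the list apart. Whether these factors acted on the host RNAs was not tested. The helicase gene Upf1 rose from 14.7 and 24.4 to 34.1 and 32.6 RPKM (log2 difference 0.83, limma adjusted p = 0.00695), and Smg8 rose from 5.91 and 7.16 to 10.5 and 10.6 RPKM (log2 difference 0.71, limma adjusted p = 0.000586). With no scaling between libraries or with upper quartile scaling, 3 of these genes rose and 1 fell. Without 10–30 or 60–65 μm library A, 3 rose, and without 10–30 μm library B 1 fell.

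Markers of other ovarian cells were read beside these values. The summed level of 12 oocyte markers was 3404 and 3580 RPKM at 10–30 μm and 2858 and 3008 RPKM at 60–65 μm. Over the 9 columns it ran from 2631 to 3955 RPKM. Both 60–65 μm libraries lay below both 10–30 μm libraries for 7 of the 12, beside 35.4% of the rows above 0. They lay above for 3, beside 33.4%. The summed level of 8 theca and stroma markers was 2.78 and 2.05 RPKM in the smallest oocytes, then 1.41 and 0.573 RPKM, 0.714 and 0.434 RPKM, and 0.938 and 0.951 RPKM with rising size class. It was thus highest in the 10–30 μm class, as the host RNAs were. At 10–30 μm most of this sum was Col1a1 and Col1a2, the genes of the chains of type I collagen, with 1.63 and 1.16 RPKM and 0.818 and 0.538 RPKM at 10–30 μm against 0.400 and 0.241 RPKM and 0.245 and 0.172 RPKM at 60–65 μm, and the other 6 were under 0.5 RPKM in every column. Neither would have passed the filter without the 10–30 μm class in which they were highest, so no test is given for them. Of the 8, 4 had both 60–65 μm libraries below both 10–30 μm libraries (the collagen genes, Dcn and Pdgfra), beside 35.4% of the rows above 0, and 3 had both above, beside 33.4%. The latter were the genes of steroid synthesis, with Cyp17a1 at 0 and 0 against 0.0132 and 0.107 RPKM and Star at 0.0217 and 0.0384 against 0.0648 and 0.107 RPKM, and with Cyp11a1 higher there too. The summed level of 10 granulosa cell markers went from 2.13 and 2.54 RPKM at 10–30 μm to 7.85 and 7.22 RPKM at 60–65 μm, with 6 of the 10 under 0.5 RPKM in every column. Of this sum Nr5a2 made up 1.29 and 1.73 RPKM at 10–30 μm and 4.81 and 4.60 RPKM at 60–65 μm, and Cyp19a1, the aromatase gene, 0.161 and 0.159 against 1.25 and 1.04 RPKM. Both 60–65 μm libraries lay above both 10–30 μm libraries for 8 of the 10, beside the same 33.4%, and Foxl2 and Wt1 overlapped between the classes. The summed level of the 7 immune, endothelial and red cell markers with a row went from 0.806 and 0.747 to 5.08 and 4.58 RPKM, of which Pecam1 made up 0.567 and 0.531 RPKM and 4.70 and 4.19 RPKM. Of the 7, 3 had both 60–65 μm libraries above both 10–30 μm libraries, beside 33.4%, and 2 had both below, beside 35.4%. The latter were Ptprc and the endothelial marker Cdh5, at 0.0101 and 0.00789 against 0.00239 and 0.00416 RPKM. The part of other cells in the values of the host RNAs was not tested.

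Methylation was measured at starts and over spans of all 9 hosts, a readout that did not enter the choice of the list. The CpG density at the starts is background for it: in the RefSeq promoter sequences (GRCm38.p6, 250 bases before and 50 bases from the start), which hold 7 of the 9 hosts, the number of CpGs ran from 16 (Snhg3) to 36 (Snhg5), beside a median of 7 over 27025 genes. Stretches of 80 bases around the annotated starts of the 3 hosts with the highest RNA levels are shown, on the strand of the gene with 40 bases before the start, as the sequence context of these starts. For Gas5 both listed starts are given, of which the first is the one whose methylation follows, and the second lies outside the 500 bp around it. Capitals mark a tract of a C and at least 4 further pyrimidines within 25 bases of the start, the kind of tract at which many genes of the translation machinery start.
Snhg3 (chr4:132353647-132353726, minus strand): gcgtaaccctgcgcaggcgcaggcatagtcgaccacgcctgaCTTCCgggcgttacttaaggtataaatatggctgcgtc
Snhg12 (chr4:132308638-132308717, plus strand): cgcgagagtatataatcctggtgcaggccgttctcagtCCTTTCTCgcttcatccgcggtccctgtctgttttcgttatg
Gas5, first listed start (chr1:161034561-161034640, plus strand, no such tract): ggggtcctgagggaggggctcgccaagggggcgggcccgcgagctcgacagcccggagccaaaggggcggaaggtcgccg
Gas5, second listed start (chr1:161035126-161035205, plus strand): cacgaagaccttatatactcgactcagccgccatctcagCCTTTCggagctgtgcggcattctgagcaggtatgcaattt
Read on the strand of the gene, such a tract was found at the first listed start of 4 of 7 hosts (57.1%) and of 55.8% of 27025 genes, so its share in the hosts was near that of all genes.

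At 500 bp on both sides of the start, RRBS positions with at least 5 reads were nearly unmethylated in every class. Snhg3 had 0 methylated calls of 106 and 0 of 178 at 40–45 μm, which allows up to 2.83% and 1.69%. It had 1 of 225 and 0 of 93 at 50–55 μm (the latter allows up to 3.23%), and 2 of 222 and 0 of 157 at 60–65 μm, where 0 of 157 allows up to 1.91%. These limits cover counting error only, and calls that share a read are not independent, so the limits may be too low. Gas5, with the most RRBS positions, had a mean methylation of 0.922% and 1.19% in 40–45 μm oocytes, 1.11% and 0.992% in those of 50–55 μm and 1.12% and 1.81% in those of 60–65 μm. Over the 7 hosts with at least 5 RRBS positions, the highest mean in any library was 3.33% (Snhg6, 50–55 μm, library B). The median over these hosts was 0.583%, 0.495% and 0.556% with rising size class, and over the starts of all genes the library medians ran from 0.296% to 0.612%. From library A or B alone it was 0.922% or 0.548% at 40–45 μm and 0.306% or 0.862% at 60–65 μm, so the classes overlapped and no rise with growth was detectable at this depth. With 2 libraries against 2, a two-sided exact permutation test cannot go below p = 0.333, so no test was made. Snhg1 had 0 RRBS positions with at least 5 reads there and Snhg11 had no more than 4.

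PBAT gave values at the starts of all 9 hosts in 60–65 μm oocytes. Of the pooled calls, 1.97% were methylated at Snhg3 (7 of 356, Wilson 95% interval 0.956 to 4.0%), 1.61% at Snhg4, 1.82% at Snhg8, 3.60% at Snhg5, 3.74% at Snhg6, 4.24% at Snhg1 (16 of 377), 4.73% at Snhg11, 6.52% at Gas5 and 8.89% at Snhg12. The last rested on 12 of 135 calls (5.16 to 14.9%), an interval that lies above those of Snhg3, Snhg4 and Snhg8 and meets those of the other 5. With all positions of at least 1 read, Snhg12 was at 7.87% of calls (5.20 to 11.7%), which lies above Snhg8 (1.67 to 4.34%) and meets Snhg3 (2.51 to 5.89%) and Snhg4 (1.86 to 5.34%). With at least 10 reads it was at 2.94% (1 of 34 calls, 0.521 to 14.9%), below Snhg1 at 4.48%, so its place as the highest start depended on the read minimum. RRBS of the same class gave far lower values within 500 bp of the Snhg12 start. There 1 of 430 calls was methylated in library A (5 positions) and 0 of 490 in library B (6 positions), beside 19 positions by PBAT. The difference between the methods was not tested. As means over positions the starts ran from 1.41% (Snhg4) to 9.86% (Snhg12), beside a median of 4.04% over 24794 genes.

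Over the whole span of each host, PBAT methylation was under the median of 12.7% over 30686 genes for 8 of the 9. As means over positions it was 1.55% for Snhg8, 3.63% for Snhg6, 3.81% for Gas5, 4.34% for Snhg1, 7.15% for Snhg12, 7.50% for Snhg5, 8.19% for Snhg11 and 8.60% for Snhg3. These hosts are short, from 785 bp (Snhg8) to 10762 bp (Snhg11) of span, so much of a span lies near the start. Their order changed with the read minimum: with at least 1 read, Snhg8 was at 0.625%, Snhg5 at 2.84%, Gas5 at 7.21% and Snhg1 at 7.40%, and with at least 10 reads Snhg3 was at 1.14% over 7 positions. Snhg4 stood apart with 19.6%, at the 61.1 percentile of all genes, with 52 methylated of 222 calls (23.4%, Wilson 95% interval 18.3 to 29.4%).

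Without the first 1000 bp of the span, Snhg4 was at 36.6% over 15 positions (51 of 138 calls) and Snhg3 at 14.2% over 12 positions (11 of 71 calls). Snhg11 was then at 9.47% over 57 positions, and the other 6 had 4 positions or fewer. The interval of Snhg4 (29.4 to 45.3% of calls) lies above that of Snhg3 (8.88 to 25.7%) and that of Snhg11 (7.44 to 13.3%). The intervals cover counting error only, and there is 1 PBAT library.

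**Figure D4:**
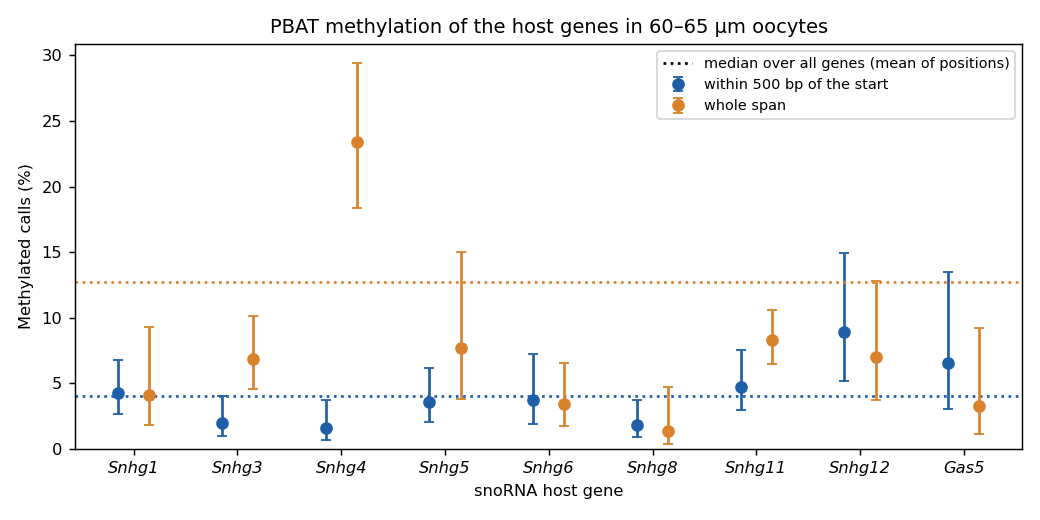
Methylated calls (%) by PBAT in 60–65 μm oocytes for each of the 9 host genes, within 500 bp of the start (blue) and over the whole span (orange), with Wilson 95% intervals, and dotted lines at the medians over all genes of the mean over positions (4.04% and 12.7%). The starts lie between 1.61% and 8.89%, and the span of Snhg4 at 23.4% is the one above the orange line.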

How the data were processed

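The 9 genes, the other lists and the tests were chosen with earlier results of these data known. The authors deposited RPKM per gene for 9 RNA columns, from reads trimmed with Trim Galore 0.2.8 and aligned to GRCm38 with TopHat2 2.0.9. The study's methods name Cufflinks for transcript expression and SeqMonk for RNA-seq analysis, and do not say which of them made this table. Per the labels and methods, RRBS and PBAT reads were aligned with Bismark 0.14.0 and 0.10.0. For each covered cytosine the authors deposited the percent methylated and the counts of methylated and unmethylated calls.

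RPKM was divided by a trimmed-mean factor (30% by ratio and 5% by level left out), and log2(RPKM + 0.1) was fitted with limma 3.58.1 (R 4.3.3) with a variance trend and 1 mean per size class. Genes with at least 0.5 RPKM in 2 of 8 growing libraries were tested (10518), with Benjamini-Hochberg adjustment and a threshold of 0.05. Fold changes on this scale understate changes of low genes. The test was tested on simulated data. Steps between RPKM values (tolerance 0.0005 of a read) gave whole reads for the hosts and totals of 99.4 M to 198 M counted reads per column, in which mates and parts of spliced reads count apart.

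Symbols were matched through RefSeq synonyms. The exon lengths counted for Snhg3, Gas5 and Snhg11 equal those of GENCODE M21, which include retained introns, and that of Snhg12 does not. Methylation used positions with at least 5 reads, with at least 5 positions at a start and 10 over a span. Coordinates are GRCm38, 1-based. Named genes were the 9 hosts, up to 2 called falls and 2 called rises with the greatest log2 difference in each list, the 5 profiles nearest to Snhg3, and genes within 1 kb of a host. Within the 3 smaller classes the A minus B differences correlated with r of 0.59 to 0.67 across genes, so the letters were also used as a block there, chosen after seeing the data. Snhg9, Snhg15, Pecam1 and the other markers named were added after their values were seen, as were the Snord47 and Snord80 sequences.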

Additional observations from a re-analysis of the deposited data

How the results depend on the processing

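The pseudocount set the size of the change in low host RNAs: the median log2 difference over the 4 hosts between 10–30 and 60–65 μm was -0.17 with 1 RPKM added and -1.40 with 0.01 RPKM, and with the latter 2 of the 4 hosts were past 2-fold. Leaving out 1 library gave 1 to 2 hosts past 2-fold (2 without 10–30 μm library B), 39 to 52 falls in the other lists beside 46, and 5 to 9 rises beside 9, with 5 without 60–65 μm library A. A filter of 2 RPKM left 2109 falls over all genes, as fewer genes were tested. The difference A minus B correlated with r of 0.59 to 0.67 among the 3 smaller classes and of -0.23 to 0.11 between these and 60–65 μm, so the letters were not taken to pair the libraries over all 4 classes. A replicate block over all 4 gave 3565 falls and 3731 rises over all genes, beside 3230 and 3439 without it, with 5 falls among box C/D genes in place of 3 and 1 among the decay factors in place of 0, and among the ribosomal protein hosts 18 falls in the first step in place of 12 and 9 in the second in place of 3. A fit of the 3 smaller classes gave 9 and 0 without the block and 21 and 20 with it. In GV oocytes the sign for Snhg11 turned with 1 of the 60–65 μm libraries left out (log2 difference -0.0337 to 0.0242).

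The median RRBS methylation at the starts was 0.548% to 0.922% at 40–45 μm, 0.498% to 0.523% at 50–55 μm and 0.306% to 0.862% at 60–65 μm with 1 library left out. At 50–55 μm it was 0.335% with at least 1 read per position, 0.571% with at least 10 reads and 0.447% with 1000 bp on both sides. The PBAT median was 5.75% with at least 1 read and 1.29% with at least 10 reads at the starts, and 14.2% over spans without the first 1000 bp, where 3 hosts kept 10 positions. The median over spans was 7.40% with at least 1 read, beside 7.15%, while single hosts moved by over 1.5 times. The cause of these differences was not tested. A tract of a C and at least 6 further pyrimidines was found in 14.3% of hosts and 24.7% of all genes. Of 121 recomputed main values, 107 stayed within the replicate spread, the counting interval or 1.5 times the count.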
